A study of Ogataea parapolymorpha with 8 samples.

Results

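The 8 genes described here cover the route from pyruvate through acetaldehyde to ethanol or to acetate and acetyl-CoA in the methylotrophic, thermotolerant yeast Ogataea parapolymorpha. They were taken from the deposited annotation, which gives for 3250 of its 5428 genes a homolog in the S288C strain of Saccharomyces cerevisiae: of the 9 homologs asked for, 8 were found, each at 1 gene, and ADH1 (YOL086C) matched no gene. The members are 1 pyruvate decarboxylase gene (PDC5, YLR134W), 1 aldehyde dehydrogenase gene (ALD4, YOR374W), 2 acetyl-CoA synthetase genes (ACS1, YAL054C, and ACS2, YLR153C), 1 gene of the acetate transporter family (ADY2, YCR010C) and 3 alcohol dehydrogenase genes (ADH2, YMR303C, ADH3, YMR083W, and ADH7, YCR105W). A symbol here is that of the S. cerevisiae homolog given by the annotation, and it does not settle which enzyme of a family the O. parapolymorpha gene encodes. The annotation's own names for ADH2 and ADH3 are 2 numbered copies of ADH2.

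The study made 8 RNA-seq libraries of polyadenylated RNA from bioreactor cultures, in 4 groups of 2. All wild-type cultures, of strain CBS11895, were chemostats on urea medium at pH 6, diluted at 0.1 per h, with pluronic acid against foam and 10 mg/L ergosterol. Those labelled micro-aerobic had glucose at 20 g/L and Tween 80 at 420 mg/L, and those labelled aerobic had glucose at 7.5 g/L and Tween 80 at 84 mg/L, so the oxygen label, the glucose and the Tween 80 cannot be told apart. Strain IMX2167, 1 mutant strain labelled as gut2 and ndi/nde deleted, was labelled aerobic and had glucose at 7.5 g/L in SM medium. It was grown as a batch with pH 6 or as a chemostat with pH 5 and the same dilution rate, and its labels name no urea, antifoam, Tween 80 or ergosterol. Strain and medium therefore cannot be told apart between mutant and wild type, nor growth mode and pH within the mutant. Against the wild type, the mutant chemostat also differs in pH and the mutant batch in growth mode. Both mutant groups also differ in glucose from the wild type labelled micro-aerobic. These differences cannot be told apart from strain and medium either.

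In yeasts, pyruvate decarboxylase removes carbon dioxide from pyruvate and leaves acetaldehyde. Alcohol dehydrogenases reduce acetaldehyde to ethanol and oxidise NADH, or run the reverse reaction when ethanol is consumed, while aldehyde dehydrogenases oxidise acetaldehyde to acetate. Acetyl-CoA synthetases activate acetate to acetyl-CoA at the cost of ATP, and this series of reactions is called the pyruvate dehydrogenase bypass. In S. cerevisiae, ALD4, ACS1, ADY2 and ADH2 are repressed by glucose and come on with ethanol or acetate as carbon source, and ACS2 is the form of acetyl-CoA synthetase used on glucose.

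The libraries held 6104949 to 11126081 counts each, and levels are given as CPM, with library totals scaled between libraries by TMM. Replicates differed by more than sampling noise in all groups, least in the mutant batch (chi-square of 5.13 per degree of freedom) and most in the mutant chemostat (38.1). The labelled oxygen supply was checked with 6 genes of heme, sterol and unsaturated fatty acid synthesis (HEM13, ERG1, ERG3, ERG11, ERG25 and OLE1) that in S. cerevisiae are known to rise when oxygen is short. All 6 of 6 were lower in the micro-aerobic-labelled libraries than in the aerobic-labelled ones, where 22.3% of all genes were lower. The median log2 change was -4.31. OLE1 changed by only -0.47, and the others by -4.02 to -7.92. HEM13 stood at 61.3 and 56.4 CPM in the micro-aerobic-labelled libraries and at 1202 and 1095 CPM in the aerobic-labelled ones. All 6 were also lower than in the aerobic-labelled wild type in both mutant groups, which are labelled aerobic as well. The median was -3.95 in the chemostat, where 29.4% of all genes were lower, and -3.58 in the batch, where 24.2% were. Against the micro-aerobic-labelled wild type 2 were higher and 1 lower in the mutant chemostat (median 0.21), where 13.7% of all genes were higher and 13.4% lower. In the mutant batch 4 were higher and 1 lower against the same wild type (median 0.83), where 22.2% of all genes were higher and 21.6% lower. In the mutant batch 4 were higher and 1 was lower than in its chemostat (median 0.57), where 24.5% of all genes were higher and 26.8% lower. The lower gene was OLE1 each time. The wild-type libraries thus go against their labels on these genes, and each is called by its label below. An exchange of the 2 labels would turn the direction of every wild-type comparison and swap the wild-type groups in those with the mutant, and the part of the oxygen supply in the results below was not tested. The targeted gene GUT2 was at 340 to 393 CPM in the wild type, 111 and 94.8 CPM in the mutant batch and 29.8 and 27.3 CPM in its chemostat. NDE1, another targeted gene, was at 49.7 to 72.1 CPM in the wild type and at 0.492 to 5.34 CPM in the mutant. Counts of GUT2 thus remained in the mutant, more in batch than in its chemostat (log2 1.85 ± 0.14), and the cause was not tested. NDE2 and NDI1 were also searched for and were not among the genes measured, so the deletion label was not checked for them.

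Pyruvate decarboxylase opens the route. PDC5 (OPAR_003405) lies on chromosome 5 at 1072679 to 1074394 on the minus strand of the deposited annotation, in 1 exon. It was at 783 and 825 CPM in the micro-aerobic-labelled libraries, 4100 and 4634 CPM in the aerobic-labelled ones, 2822 and 3171 CPM in the mutant batch, and 1504 and 1000 CPM in its chemostat. In such bulk samples, fewer cells with a transcript and less of it per cell cannot be told apart. No 2 groups overlapped, and the order from high to low was wild type labelled aerobic, mutant batch, mutant chemostat, wild type labelled micro-aerobic. PDC5 was lower by a log2 change of -2.44 ± 0.19 (SE, adjusted p = 1.4e-07) in the micro-aerobic-labelled libraries than in the aerobic-labelled ones, and higher by 1.26 ± 0.18 (adjusted p = 7.5e-05) in the mutant batch than in its chemostat. Of the other neighbours in this order, the changes were -0.54 ± 0.18 for the mutant batch against the aerobic-labelled libraries (adjusted p = 0.0233), and 0.64 ± 0.18 for the mutant chemostat against the micro-aerobic-labelled ones (adjusted p = 0.022). The first of these calls was lost with upper quartile scaling (adjusted p = 0.0856) and without batch replicate 1 (0.155), batch replicate 2 (0.0579) or aerobic replicate 2 (0.0835). The other was lost without chemostat replicate 1 (0.237) and without micro-aerobic replicate 1 (0.125) or 2 (0.148). No other gene of the annotation carries the S288C homolog of a pyruvate decarboxylase that was searched for (PDC1 and PDC6). The 1 other gene with the same set of thiamine pyrophosphate enzyme domains is the homolog of ILV2, which makes acetolactate from pyruvate for valine and isoleucine.

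**Figure D1:**
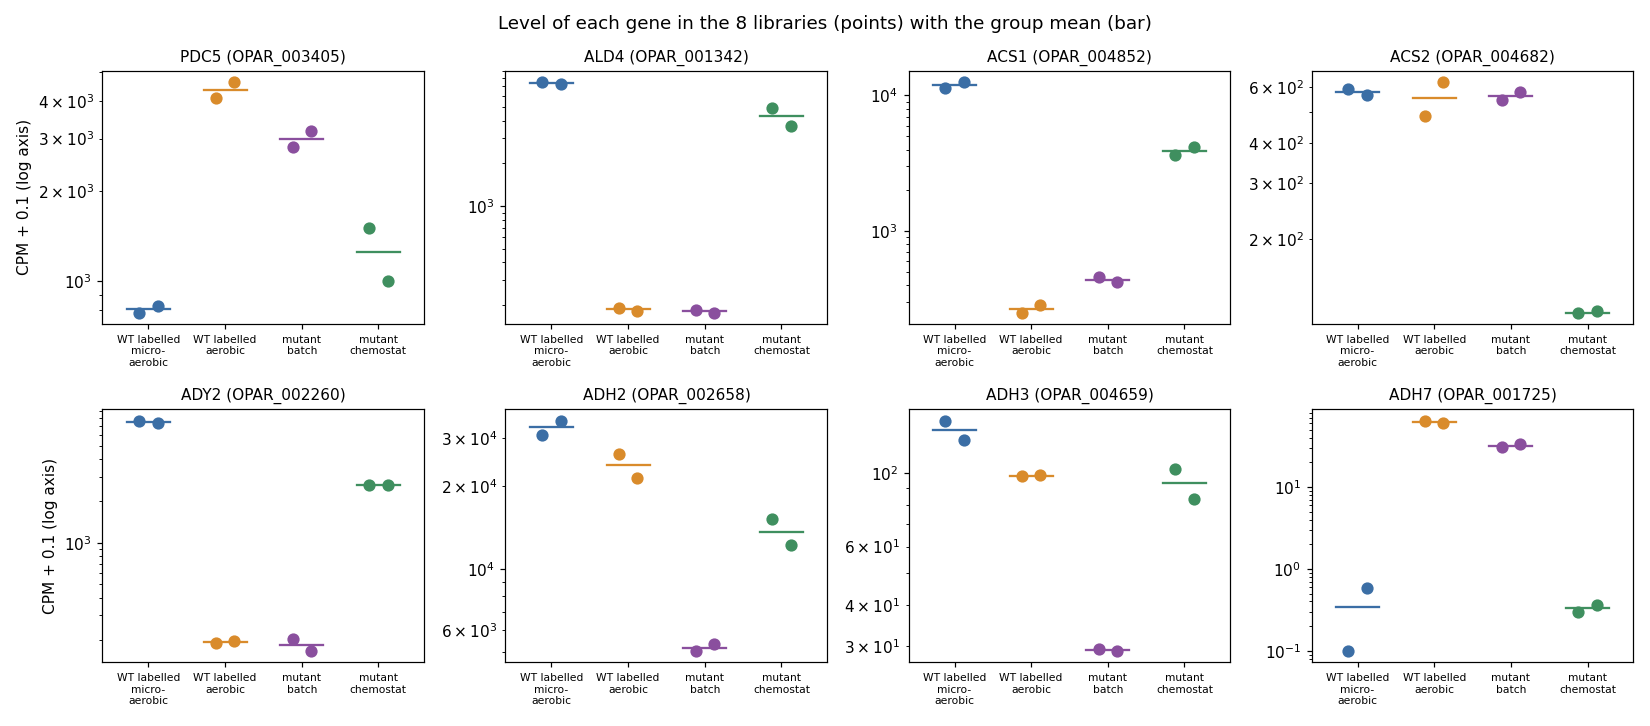
Level of each of the 8 genes in every library, in CPM plus 0.1 on a log axis that differs between panels; each point is 1 library and each bar the mean of the 2 libraries of a group. ALD4, ACS1 and ADY2 are high in the wild type labelled micro-aerobic and in the mutant chemostat, PDC5 and ADH7 in the wild type labelled aerobic and in the mutant batch.

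Aldehyde dehydrogenase is the next step towards acetate. ALD4 (OPAR_001342, chromosome 3, 236453 to 238009, plus strand, 1 exon), which in S. cerevisiae encodes a mitochondrial enzyme, was at 7472 and 7254 CPM in the micro-aerobic-labelled libraries and 192 and 181 CPM in the aerobic-labelled ones. In the mutant it was at 183 and 177 CPM in batch and 4942 and 3679 CPM in the chemostat. The 8 libraries thus fell into 4 at 3679 CPM or more and 4 at 192 CPM or less, with the aerobic-labelled libraries and the mutant batch together at the low end. The difference was 39.5-fold between the wild-type groups (log2 5.30 ± 0.19, adjusted p = 4.6e-11) and 24.0-fold between mutant chemostat and batch (log2 for batch minus chemostat -4.58 ± 0.18, adjusted p = 2.3e-10). The low groups did not pass the test against each other (mutant batch minus wild type labelled aerobic, log2 -0.05, 95% interval -0.40 to 0.30, adjusted p = 0.819). The mutant chemostat was below the micro-aerobic-labelled libraries by a log2 change of -0.77 ± 0.16 (adjusted p = 0.00429).

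Acetate is then activated by acetyl-CoA synthetase. ACS1 (OPAR_004852, chromosome 7, 606811 to 608823, minus strand, 1 exon) was at 11387 and 12510 CPM in the micro-aerobic-labelled libraries, 252 and 285 CPM in the aerobic-labelled ones, 458 and 425 CPM in the mutant batch, and 3641 and 4159 CPM in its chemostat. No 2 groups overlapped. The change was 44.4-fold between the wild-type groups (log2 5.47 ± 0.18, adjusted p = 2.3e-11) and 8.83-fold between mutant chemostat and batch (log2 for batch minus chemostat -3.14 ± 0.16, adjusted p = 2.6e-09). Unlike ALD4 and ADY2, ACS1 passed the test between the low groups, with more in the mutant batch than in the wild type labelled aerobic (log2 0.71 ± 0.15, adjusted p = 0.00149). The mutant chemostat was below the micro-aerobic-labelled libraries (log2 -1.62 ± 0.15, adjusted p = 5.9e-06).

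ACS2 (OPAR_004682, chromosome 7, 274922 to 277134, plus strand, 1 exon with annotated 5′ and 3′ untranslated regions) followed another pattern. It was at 592 and 568 CPM in the micro-aerobic-labelled libraries, 487 and 621 CPM in the aerobic-labelled ones, 547 and 578 CPM in the mutant batch, and 118 and 119 CPM in its chemostat. The first 3 groups overlapped, and the mutant chemostat stood below all of them. In the wild type the log2 change was 0.06 with a 95% interval of -0.24 to 0.37 (adjusted p = 0.729). The mutant batch was 4.76-fold above the mutant chemostat (log2 2.25 ± 0.15, adjusted p = 3.3e-08), and the mutant chemostat was below the aerobic-labelled libraries (log2 -2.23 ± 0.15, adjusted p = 2.3e-08) and below the micro-aerobic-labelled ones (log2 -2.29 ± 0.15, adjusted p = 1.1e-07).

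The acetate transporter family is represented by ADY2 (OPAR_002260, chromosome 4, 500044 to 500859, minus strand, 1 exon). In S. cerevisiae this gene encodes an acetate and ammonium transporter of the plasma membrane. It was at 7624 and 7296 CPM in the micro-aerobic-labelled libraries, 189 and 195 CPM in the aerobic-labelled ones, 201 and 166 CPM in the mutant batch, and 2608 and 2630 CPM in its chemostat. The aerobic-labelled libraries lay between the batch replicates, and the other groups stood apart. ADY2 was 38.8-fold higher in the wild type labelled micro-aerobic than in that labelled aerobic (log2 5.28 ± 0.17, adjusted p = 2.3e-11) and 14.3-fold lower in the mutant batch than in the mutant chemostat (log2 -3.84 ± 0.16, adjusted p = 3.4e-10). The mutant chemostat was below the micro-aerobic-labelled libraries (log2 -1.51 ± 0.15, adjusted p = 8.0e-06), and for the mutant batch against the aerobic-labelled libraries the log2 change was -0.07 (95% interval -0.38 to 0.24, adjusted p = 0.719). Among all 5265 genes tested, ranked by CPM per kb of gene, ADY2 was rank 6 in the wild type labelled micro-aerobic, 29 in the mutant chemostat, 799 in the wild type labelled aerobic and 770 in the mutant batch.

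Alcohol dehydrogenases connect acetaldehyde with ethanol. ADH2 (OPAR_002658, chromosome 4, 1131654 to 1132837, plus strand, 1 exon with annotated untranslated regions at both ends) was at 30894 and 34739 CPM in the micro-aerobic-labelled libraries, 26295 and 21440 CPM in the aerobic-labelled ones, 5043 and 5321 CPM in the mutant batch, and 15164 and 12235 CPM in its chemostat. No 2 groups overlapped, and the mutant batch was the lowest. Per kb of gene, ADH2 was rank 1 of the genes tested in the wild type labelled micro-aerobic, rank 5 in that labelled aerobic, rank 3 in the mutant chemostat and rank 41 in the mutant batch. It fell by a log2 change of -1.40 ± 0.17 (adjusted p = 2.0e-05) in the mutant batch against the mutant chemostat and of -2.20 ± 0.18 (adjusted p = 2.9e-07) against the wild type labelled aerobic. The wild-type difference was small, log2 0.46 ± 0.17 (adjusted p = 0.0418), and its call was lost with RLE scaling (adjusted p = 0.0575), with only the 4 wild-type libraries in the fit (0.0694), and without aerobic replicate 2 (0.116) or micro-aerobic replicate 1 (0.101) or 2 (0.245).

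ADH3 (OPAR_004659, chromosome 7, 245104 to 246252, minus strand, 1 exon), whose S. cerevisiae homolog encodes a mitochondrial alcohol dehydrogenase, was far lower. It was at 144 and 126 CPM in the micro-aerobic-labelled libraries, 97.6 and 98.6 CPM in the aerobic-labelled ones, 29.3 and 29.0 CPM in the mutant batch, and 103 and 83.7 CPM in its chemostat. The mutant batch again stood below all others, and the aerobic-labelled libraries lay between the chemostat replicates of the mutant. The log2 change of the mutant batch was -1.68 ± 0.15 against the mutant chemostat (adjusted p = 7.8e-07), -1.75 ± 0.15 against the wild type labelled aerobic (adjusted p = 5.2e-07) and -2.21 ± 0.15 against that labelled micro-aerobic (adjusted p = 5.2e-08). The mutant chemostat against the aerobic-labelled libraries gave -0.08 (95% interval -0.38 to 0.23, adjusted p = 0.656). Between the wild-type groups it was 0.46 ± 0.14 (adjusted p = 0.0177), a call that was lost without aerobic replicate 1 (0.0564) or micro-aerobic replicate 1 (0.162). That of the mutant chemostat against the micro-aerobic-labelled libraries, -0.53 ± 0.14 (adjusted p = 0.0158), was lost without either micro-aerobic replicate (0.125 and 0.0723).

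ADH7 (OPAR_001725, chromosome 3, 868604 to 869774, minus strand, 1 exon with an annotated 3′ untranslated region) had the widest relative range of the 8 genes. Its S. cerevisiae homolog encodes an NADPH-dependent medium-chain alcohol dehydrogenase. It had 0 and 3 counts in the micro-aerobic-labelled libraries, 340 and 388 counts in the aerobic-labelled ones, 268 and 382 counts in the mutant batch, and 2 and 3 counts in its chemostat. In CPM these are 0 and 0.479, then 64.8 and 61.2, then 30.5 and 33.4, and then 0.197 and 0.265. The summed level was 263 times as high in the wild type labelled aerobic as in that labelled micro-aerobic (95% counting interval 89.5 to 1280) and 138 times as high in the mutant batch as in the mutant chemostat (58.8 to 426). These intervals cover counting error only. The wild-type ratio rests on 3 counts in micro-aerobic replicate 2. The fitted log2 change of -7.95 ± 0.42 became -6.99 without micro-aerobic replicate 1, and -12.07 without replicate 2, which leaves that group at 0 counts, so this last value is no measure of size. For the mutant batch minus the wild type labelled micro-aerobic, 6.97 ± 0.44 became 6.02 and 11.09 in the same way. The edgeR test passed between the wild-type groups (adjusted p = 2.3e-09) and between mutant batch and mutant chemostat (6.5e-09). It also passed between the mutant batch and the wild type labelled micro-aerobic (2.2e-08). The mutant batch was at 0.511 of the level in the aerobic-labelled libraries (0.459 to 0.569), and the log2 change of -0.98 ± 0.21 passed the test (adjusted p = 0.00194). Between the low groups the ratio of mutant chemostat to wild type labelled micro-aerobic was 0.973 with an interval of 0.189 to 6.26, so no difference was detectable at this depth.

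In the wild-type comparison 5 of the 8 genes were higher and 2 lower in the micro-aerobic-labelled libraries, and over all genes tested 45.5% passed in either direction, 23.2% higher and 22.3% lower. ALD4, ACS1, ADY2, ADH2 and ADH3 were the higher genes, PDC5 and ADH7 the lower ones, and ACS2 did not pass. The median log2 change of the 8 genes was 0.46, against 0.02 over all genes. Of the 7 that passed, 5 changed by more than 2-fold and the others, ADH2 and ADH3, by less. The share of all genes that passed and changed by more than 2-fold was not counted.

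In the mutant, all 8 genes passed between batch and chemostat, 3 higher and 5 lower in batch. Over all genes 51.4% passed at any size of change (24.5% higher, 26.8% lower). Each of the 8 genes changed by more than 2-fold, and the share of all genes that did so was not counted. PDC5, ACS2 and ADH7 were higher in batch, and ALD4, ACS1, ADY2, ADH2 and ADH3 were lower. The median was -1.54 for the 8 genes and -0.02 over all genes. A fit with the code in the mutant libraries' names as a block also called 8 of 8, and its count over all genes is given in the last section.

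The mutant chemostat was set against each wild-type group. Against the aerobic-labelled libraries, 3 of the 8 genes were higher (ALD4, ACS1 and ADY2) and 4 lower (PDC5, ACS2, ADH2 and ADH7), with 60.7% of all genes passing (31.3% higher, 29.4% lower) and medians of -0.44 for the 8 genes and 0.03 for all. The log2 changes of the higher genes were 4.53 ± 0.18 for ALD4, 3.86 ± 0.17 for ACS1 and 3.77 ± 0.16 for ADY2 (adjusted p = 1.6e-10, 3.0e-10 and 2.7e-10). PDC5 and ADH2 were lower by -1.80 ± 0.19 and -0.80 ± 0.17 (adjusted p = 2.3e-06 and 0.00127). Against the micro-aerobic-labelled libraries, 1 gene (PDC5) was higher and 6 were lower, where 27.1% of all genes passed (13.7% higher, 13.4% lower), with medians of -1.02 for the 8 genes and 0.01 for all. ADH2 was among the lower genes at -1.26 ± 0.17 (adjusted p = 2.1e-04), and ADH7 did not pass.

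The mutant batch was set against the same wild-type groups. Against the aerobic-labelled libraries, 1 of the 8 genes was higher (ACS1) and 4 were lower (PDC5, ADH2, ADH3 and ADH7), where 48.2% of all genes passed (24.0% higher, 24.2% lower) and the medians were -0.31 and 0.04. ALD4, ADY2 and ACS2 did not pass, the last with a log2 change of 0.02 (95% interval -0.28 to 0.32, adjusted p = 0.916). Against the micro-aerobic-labelled libraries, 2 were higher (PDC5 and ADH7) and 5 lower, where 43.8% of all genes passed (22.2% higher, 21.6% lower) and the medians were -2.44 and -0.02. ALD4 and ADY2 both gave -5.35, with SE of 0.19 and 0.17, ACS1 gave -4.76 ± 0.17 and PDC5 1.90 ± 0.19 (adjusted p = 6.6e-11, 3.3e-11, 7.8e-11 and 2.3e-06). The 6 comparisons share groups, so their changes are not independent of one another.

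**Figure D2:**
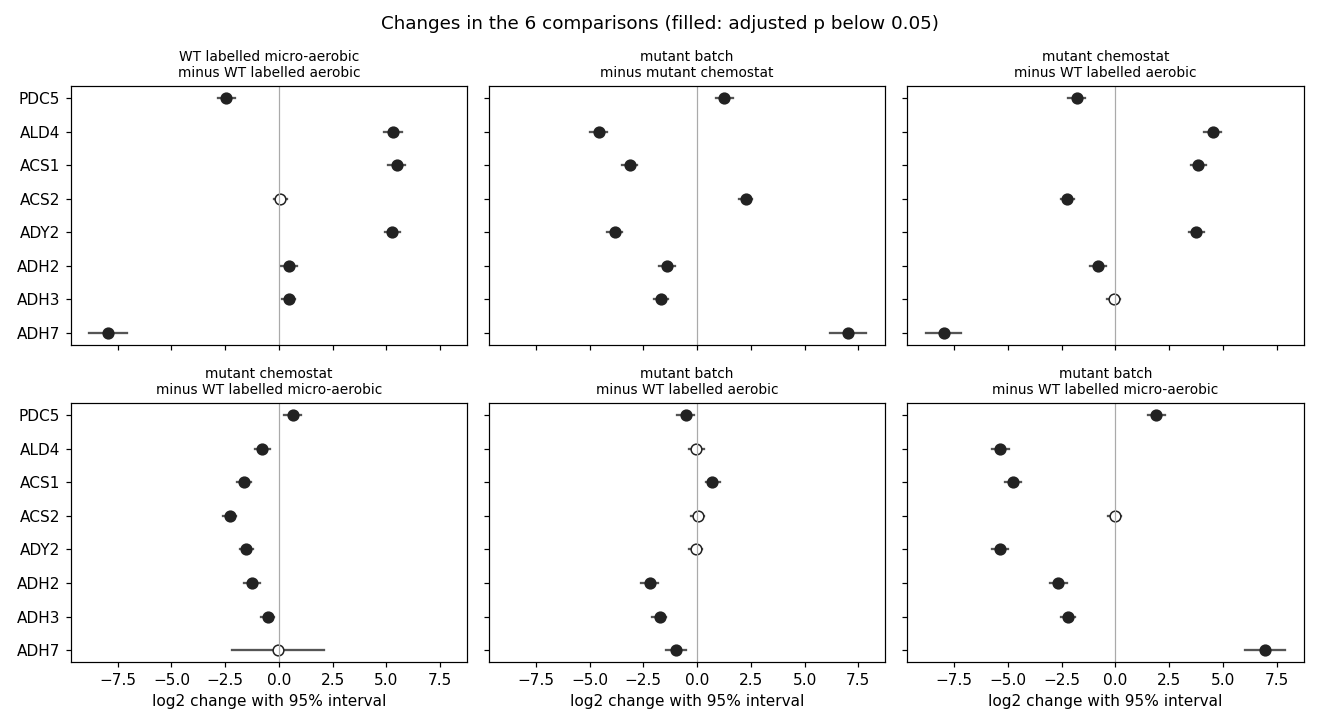
Log2 change of each of the 8 genes in the 6 comparisons, with 95% intervals derived from the F statistic of the edgeR test. Filled points have an adjusted p below 0.05. ALD4, ACS1 and ADY2 sit near 5 on the log2 axis for the wild type labelled micro-aerobic minus that labelled aerobic, and left of 0 for the mutant batch minus its chemostat; ADH7, with at most 3 counts per library in a pair of groups, has the widest intervals.

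Ratios of levels per kb within a library put pairs of genes on 1 scale. The ratio of ACS1 to ACS2 was 21.2 and 24.2 in the micro-aerobic-labelled libraries, 0.569 and 0.505 in the aerobic-labelled ones, 0.921 and 0.807 in the mutant batch, and 34.0 and 38.5 in its chemostat. ACS1 was thus the higher of the 2 synthetase genes in the wild type labelled micro-aerobic and the mutant chemostat. ACS2 was the higher in the wild type labelled aerobic and the mutant batch. ACS1 made up 95.8% of the summed ACS1 and ACS2 level in the wild type labelled micro-aerobic, 34.8% in that labelled aerobic, 46.3% in the mutant batch and 97.3% in its chemostat. The mutant chemostat had the highest ratios and the lowest ACS2. The wild-type groups differed in ACS1, while ACS2 did not pass the test between them.

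By their homologs, PDC5 would supply acetaldehyde and ALD4 would use it, but a ratio of transcripts measures neither reaction. The ratio of PDC5 to ALD4 per kb was 0.0950 and 0.103 in the micro-aerobic-labelled libraries, 19.4 and 23.3 in the aerobic-labelled ones, 14 and 16.2 in the mutant batch, and 0.276 and 0.247 in its chemostat. The groups did not overlap, and the ratio was above 1 in the wild type labelled aerobic and the mutant batch. PDC5 was below ADH2 in every library: that ratio was 0.0175 and 0.0164 in the micro-aerobic-labelled libraries, 0.108 and 0.149 in the aerobic-labelled ones, 0.386 and 0.411 in the mutant batch, and 0.0685 and 0.0564 in its chemostat. The mutant batch, with the lowest ADH2, had the highest ratio.

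ALD4 and ACS1, by their homologs successive steps from acetaldehyde to acetyl-CoA, kept closer levels per kb. Their ratio was 0.848 and 0.750 in the micro-aerobic-labelled libraries, 0.984 and 0.818 in the aerobic-labelled ones, 0.515 and 0.539 in the mutant batch, and 1.76 and 1.14 in its chemostat. ADH2 was 142 to 267 times as high as ADH3 per kb in all 8 libraries.

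**Figure D3:**
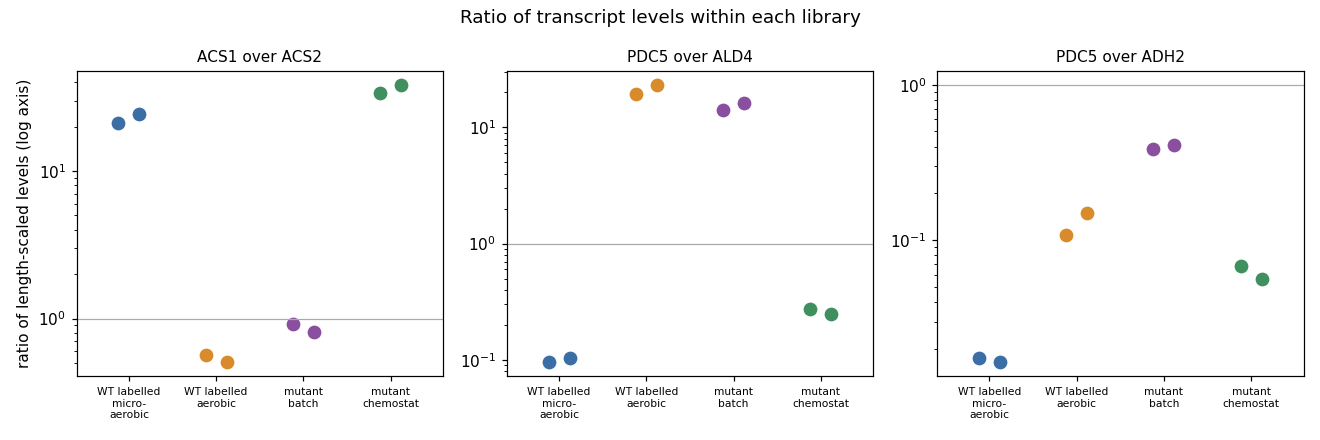
Ratio of levels per kb within each library (log axis; each point is 1 library; the grey line marks a ratio of 1). ACS1 is above ACS2 at 21.2 to 38.5 in the wild type labelled micro-aerobic and the mutant chemostat; PDC5 is above ALD4 at 14 to 23.3 in the other groups, and below ADH2 in all libraries.

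Other genes with the same protein domains in the deposited annotation were listed after the files had been seen, and their levels are a description. Of 12 genes with the aldehyde dehydrogenase domain, ALD4 made up 86.3% of the summed level per kb in the wild type labelled micro-aerobic, 11.9% in that labelled aerobic, 13.6% in the mutant batch and 77.8% in its chemostat. The next gene, OPAR_002232, stayed between 303 and 388 CPM per kb as group means. In the 2 groups with little ALD4 it was the gene of the domain with the highest level.

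Of 16 genes with zinc alcohol dehydrogenase domains, ADH2 made up 78.9%, 65.0%, 58.0% and 64.6% of the summed level per kb in the wild type labelled micro-aerobic, that labelled aerobic, the mutant batch and the mutant chemostat. ADH3 and ADH7 each stayed under 1% of it. OPAR_005213, which has no homolog in the annotation, was second in the wild type labelled aerobic at 7494 CPM per kb, and stood at 582 in that labelled micro-aerobic, 527 in the mutant batch and 1265 in its chemostat. The homolog of BDH1, which in S. cerevisiae encodes butanediol dehydrogenase, was second in the wild type labelled micro-aerobic at 2626 CPM per kb and in the mutant chemostat at 1570, and stood at 265 and 157 in the other groups.

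The acetate transporter domain marks 3 genes. ADY2 made up 60.5% of their summed level per kb in the wild type labelled micro-aerobic, 28.9% in that labelled aerobic, 64.4% in the mutant batch and 74.9% in its chemostat. OPAR_003553 stood at 5936 CPM per kb in the wild type labelled micro-aerobic, 427 in that labelled aerobic, 41.8 in the mutant batch and 1064 in its chemostat. OPAR_001600 went the other way, with 25.2, 155, 82.7 and 13.9 CPM per kb in the same order. The 3 genes of this family therefore did not share 1 pattern.

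**Figure D4:**
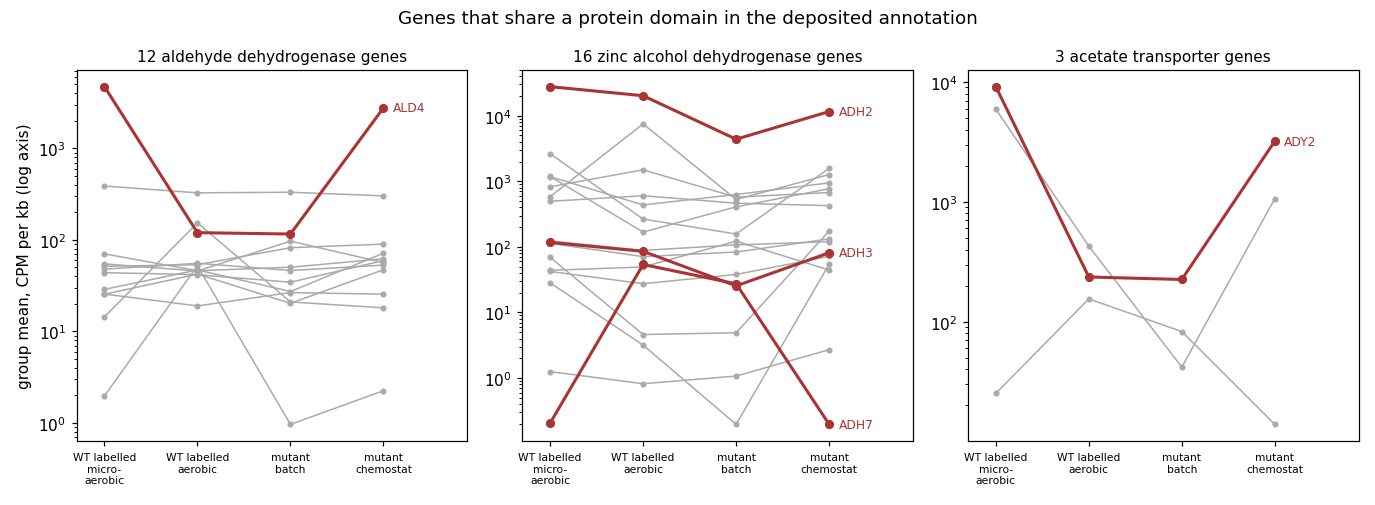
Group means in CPM per kb (log axis) of all genes that share a protein domain with ALD4, with the alcohol dehydrogenases or with ADY2; red lines are the members and grey lines the other genes. ALD4 makes up 86.3% of its family in the wild type labelled micro-aerobic and 11.9% in that labelled aerobic, and ADH2 is the highest zinc alcohol dehydrogenase gene in all 4 groups.

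For each gene the 3 genes with the most similar levels were found by Pearson's r of log2 CPM over the 8 libraries, which are 4 pairs of replicates and share their group differences and their depth. ADY2 was most like the homolog of CAT2, a carnitine acetyltransferase (r = 0.992), ALD4 (0.992) and SFC1, a mitochondrial carrier of succinate and fumarate (0.992). ALD4 was most like the homolog of PEX11 (YOL147C), a peroxisome membrane protein (0.996), and 2 genes without a homolog, OPAR_001180 and OPAR_001866 (both 0.995). ACS1 was most like OPAR_002531 (0.997), ADY2 (0.991) and OPAR_002683 (0.991).

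PDC5 was most like the homolog of PFK1 (YGR240C), a subunit of phosphofructokinase in glycolysis (0.988), ERG2 of sterol synthesis (0.987) and OPAR_004287 (0.987). ADH7 was most like OPAR_004726, PGI1, the glycolytic glucose-6-phosphate isomerase, and OPAR_004063 (all 0.996). It had at most 3 counts per library in the wild type labelled micro-aerobic and the mutant chemostat. Its log2 CPM there rests largely on the 3 counts added before taking logs, so its r mainly reflects the split between these groups and the others. ACS2 was most like OPAR_004989 (0.978), NPA3, a GTPase (0.968), and OPAR_002077 (0.957), lower values than for the other genes. ADH2 was most like OPAR_002526 (0.990), OPAR_002363 (0.987) and OPAR_001382 (0.981), and ADH3 was most like OPAR_001867 (0.992), CDR1, a drug efflux pump (0.981), and CPY1, a vacuolar carboxypeptidase (0.978).

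Genes around the route were counted in 5 lists, each set beside the share of all genes that passed in the same comparison. Of 12 further S288C homologs of pyruvate decarboxylase, aldehyde and alcohol dehydrogenase genes, 5 were found (ALD2, ADH6, SFA1, BDH1 and GRE2). In the wild type labelled micro-aerobic against that labelled aerobic 3 were higher and 1 lower (4 of 5 passed, against 45.5% of all genes), with a median of 0.48. BDH1 gave 3.31 ± 0.15, SFA1, the formaldehyde and long-chain alcohol dehydrogenase, 1.43 ± 0.15, and GRE2, a methylglyoxal reductase, -3.35 ± 0.18. In the mutant batch against its chemostat 1 was higher and 2 were lower (median -0.17). These 3 of 5 are near the 51.4% of all genes, with BDH1 at -3.32 ± 0.15 and GRE2 at 1.24 ± 0.17.

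Genes of the other fates of pyruvate were found for 11 of 15 homologs. Between the wild-type groups 5 were higher and 2 lower in the micro-aerobic-labelled libraries (7 of 11, against 45.5% of all genes; median 0.41), with MPC1 of the mitochondrial pyruvate carrier at 1.89 ± 0.19 and CDC19, pyruvate kinase, at -1.91 ± 0.15. In the mutant batch against its chemostat 7 were higher and 2 lower (9 of 11, against 51.4%; median 0.65), led by CDC19 at 2.19 ± 0.16. Of 5 genes of the pyruvate dehydrogenase complex, PDA1, PDB1, LAT1 and PDX1 were higher in batch by 0.55 to 0.95, and LPD1 gave 0.24 ± 0.13 and did not pass.

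Genes for the use and transport of acetyl-CoA and acetate were found for 8 of 13 homologs. In the micro-aerobic-labelled libraries 7 were higher and 1 lower (8 of 8, against 45.5% of all genes; median 3.04), with YAT1, a carnitine acetyltransferase, at 7.24 ± 0.27, CRC1, the mitochondrial acetylcarnitine carrier, at 5.40 ± 0.20 and CIT1, citrate synthase, at 5.36 ± 0.17. In the mutant batch against its chemostat 1 was higher and 5 were lower (6 of 8, against 51.4%; median -1.16). The mutant chemostat was below the micro-aerobic-labelled libraries for 5 of the 8 and above for 0 (against 27.1% of all genes; median -0.77), led by CRC1 at -4.27 ± 0.18 and CIT1 at -2.58 ± 0.15.

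The glyoxylate cycle and gluconeogenesis turn acetyl-CoA into sugars in S. cerevisiae. Of a list of their genes and of genes linked to them (among these ACO1, IDP2 and SFC1), 7 of 10 homologs were found. All 7 were higher in the micro-aerobic-labelled libraries than in the aerobic-labelled ones (median 4.22), where 23.2% of all genes were. All 7 were lower in the mutant batch than in its chemostat (median -2.57), where 26.8% of all genes were, and than in the micro-aerobic-labelled libraries (median -3.46), where 21.6% were. ICL1, isocitrate lyase, was at 673 and 783 CPM in the micro-aerobic-labelled libraries, 3.62 and 0.947 in the aerobic-labelled ones, 2.50 and 2.97 in the mutant batch, and 40.1 and 41.1 in its chemostat. Against the wild type labelled micro-aerobic, the mutant chemostat was lower for 3, ICL1 (-4.16 ± 0.21), MLS1, malate synthase (-1.98 ± 0.13), and SFC1 (-1.23 ± 0.13), and higher for PCK1, phosphoenolpyruvate carboxykinase (1.28 ± 0.17), 4 of 7 against 27.1% of all genes. ALD4, ACS1 and ADY2 were also lower in that comparison.

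Of the regulators of carbon derepression 10 of 16 were found. Between the wild-type groups 4 of 10 passed, near the 45.5% of all genes, so the count says nothing particular about the list (median 0.15). The genes that passed were ADR1 (2.01 ± 0.13), CAT8 (1.36 ± 0.16) and SNF1 (0.75 ± 0.15), higher in the micro-aerobic-labelled libraries and known in S. cerevisiae as activators of derepressed genes, and HXK2 (-3.38 ± 0.17), a hexokinase with a role in glucose repression there. The 6 regulators that did not pass changed by -0.29 to 0.31, so the list as a whole did not move with these genes. In the mutant batch against its chemostat 5 were lower and 1 was higher, again near the share of all genes, 51.4% (median -0.39). SNF1 (-1.22 ± 0.15) and ADR1 (-1.12 ± 0.13) were among the lower genes, and HXK2 was the higher one (2.15 ± 0.16).

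**Figure D5:**
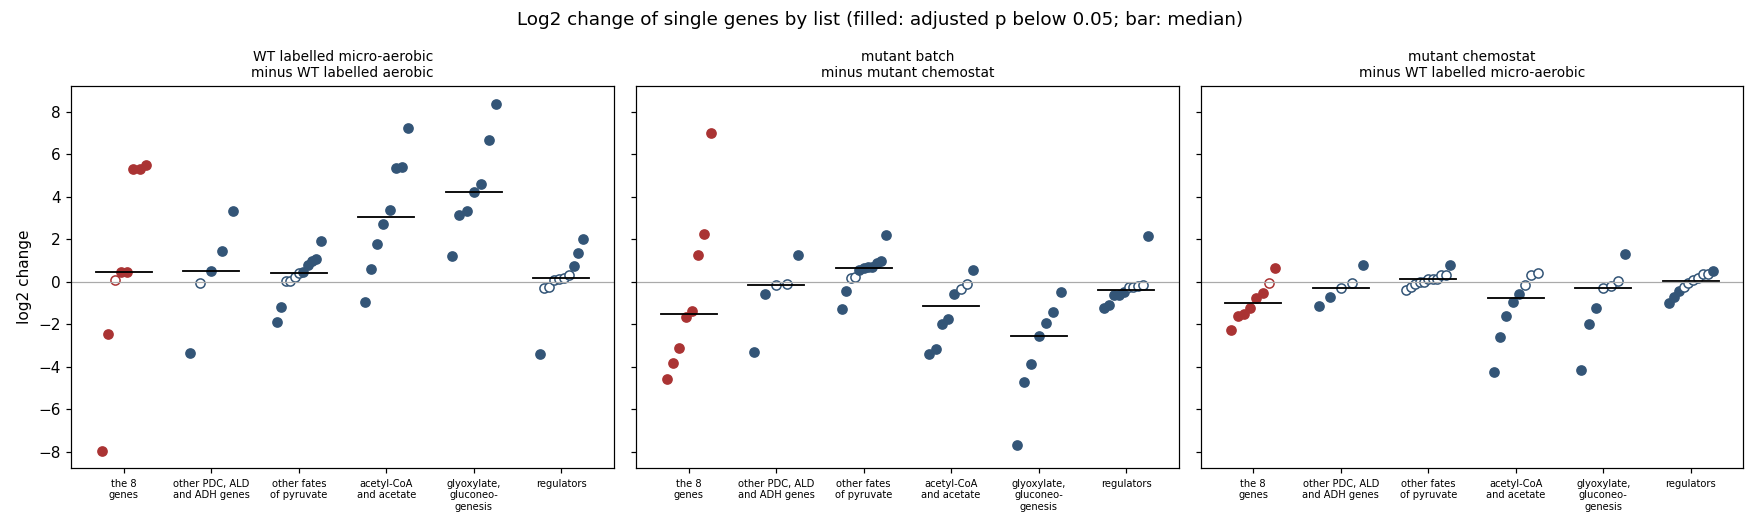
Log2 change of single genes in 3 of the 6 comparisons, for the 8 genes (red) and 5 lists of related genes (blue); filled points have an adjusted p below 0.05 and bars are medians. The 7 genes of the list for the glyoxylate cycle, gluconeogenesis and linked genes lie above 0 (median 4.22) in the first panel. They lie below 0 (median -2.57) in the second, whereas the third has points on both sides of 0.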

How the data were processed

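The authors deposited counts of read pairs per gene, not normalized. Per the file headers they came from featureCounts over gene features of an annotation made with funannotate. No strand setting was used, so antisense reads cannot be told apart. None of the 8 genes overlaps another in the annotation. However, the nearest gene lies 1 bp from ADH7, 8 bp from ADH2, 17 bp from ACS2 and 34 bp from PDC5. Whether reads of adjoining transcripts were counted there was not tested. Tools in the submitters' processing notes are featureCounts 1.6.0, edgeR 3.28.1, Bowtie 1.2.1.1 and SAMtools 1.3.1. Which genome build was read is not stated in the sources used here. Another 4 columns of the table were not used. Reads shared between near-identical genes could not be checked.

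All 8 libraries were fitted together with edgeR 4.0.16 (R 4.3.3): filterByExpr kept 5265 genes, all 8 members among them, TMM factors were 0.859 to 1.12, and the two-sided quasi-likelihood F test was adjusted by Benjamini-Hochberg over all of these genes at 0.05. The fit had 4 residual degrees of freedom and a common coefficient of biological variation of 0.118. The script was tested on simulated data. CPM use TMM-scaled totals. Since the labels do not say whether the libraries of a group are separate cultures, p-values measure only how these samples vary, which may be technical. Members, lists and named genes (up to 4 per list and comparison, by largest change) were chosen with earlier results of these data known. PDA1, LAT1, PDX1 and LPD1 were named after their values were seen.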

Additional observations from a re-analysis of the deposited data

How the results depend on the processing

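Of the 48 pairs of a gene and a comparison, 41 passed the threshold. None of these 41 changed sign under the alternatives run (DESeq2 1.42.0, RLE and upper quartile scaling, no filter on low counts, a fit of the 4 libraries compared, each library left out, and a block for the mutant libraries' codes), 36 stayed past the threshold under all of them, and 5 lost it under at least 1: ADH2 and ADH3 between the wild-type groups, PDC5 and ADH3 between the mutant chemostat and the libraries labelled micro-aerobic, and PDC5 between the mutant batch and the libraries labelled aerobic. None of the 7 other pairs passed under an alternative, but each changed sign under at least 1, and the cause was not tested. With upper quartile scaling the log2 changes were 0.0157 for ACS2 (mutant batch minus wild type labelled micro-aerobic), 0.103 for ADH3 (mutant chemostat minus wild type labelled aerobic), 0.0374 for ADH7 (mutant chemostat minus wild type labelled micro-aerobic), and 0.107 for ALD4 and 0.0866 for ADY2 (mutant batch minus wild type labelled aerobic). With single libraries left out, ACS2 ran from -0.12 to 0.204 (mutant batch minus wild type labelled aerobic), from -0.0786 to 0.00445 (mutant batch minus wild type labelled micro-aerobic) and from -0.101 to 0.241 (wild type labelled micro-aerobic minus aerobic). In the comparisons just given, ADH3 ran from -0.23 to 0.0443, ALD4 from -0.0973 to 0.016, ADY2 from -0.211 to 0.0665 and ADH7 from -0.997 to 4.08, the last without micro-aerobic replicate 2, which leaves that group at 0 counts. ADH7 could not be tested between the mutant chemostat and the libraries labelled micro-aerobic in the fit of only those 4 libraries. Leaving out 1 library at a time leaves a group with 1 library, so counts of genes past the threshold are not given. With all 8 libraries fitted, 27.1% of all genes passed for the mutant chemostat against the wild type labelled micro-aerobic, the lowest share. The highest share was 60.7%, for the mutant chemostat against the wild type labelled aerobic. A pass is therefore not particular to the 8 genes. With the codes as a replicate block, 8 of 8 genes and 2569 of all genes passed between mutant batch and chemostat (2704 without it). The labels do not say what the codes mean, and libraries with the same code deviated from their group means with a correlation of -0.301 over 5127 genes, so they were not taken as pairs; with the codes crossed, an alternative chosen after seeing the data, the counts were 8 and 2806.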
